A study of Mus musculus with 36 samples.

Results

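The 37 genes of the mouse mitochondrial genome were followed in liver RNA from mice fed a control diet or a diet with tomato powder. They were taken as every gene of the count table whose GENCODE symbol begins with mt-, which gave 37 of 53715 gene identifiers: 13 mRNAs, 2 rRNAs and 22 tRNAs. The table holds 36 libraries, 12 per diet and each labelled with its own mouse number, although the labels' treatment text gives 11 to 12 mice per group. They came from livers of male C57BL/6 mice aged 10 weeks, which had eaten their diet for 6 weeks from 4 weeks of age. The 3 diets were AIN93G, a purified rodent diet that served as control, the same kind of diet with 10% red tomato powder, and that with 10% tangerine tomato powder, all matched in macronutrients. Red tomatoes store lycopene mostly in its all-trans form and tangerine tomatoes store mostly cis forms. RNA was made from whole pieces of preserved liver, so every value is an average over all cells of the piece. Fewer mitochondria, fewer genomes per mitochondrion and less RNA per genome cannot be told apart in such counts. The 6 hepatocyte markers, such as albumin, summed to between 93120 and 125300 CPM (counts scaled to one common library total) in the 36 libraries.

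Mitochondria keep a small circular genome, chromosome M, which is transcribed from both strands into long precursors. The tRNAs lie between most of the other genes, and their excision releases the mRNAs and rRNAs. The 13 mRNAs encode core subunits of the respiratory chain and of ATP synthase, while all other subunits, the RNA polymerase and the ribosomal proteins come from nuclear genes. Liver is rich in mitochondria and its transcripts make up a large share of any liver library.

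The gene models followed each other closely on chromosome M of GRCm38, where the 37 genes covered positions 1 to 15422. The heavy-strand transcript carried 12 of the mRNAs, both rRNAs and 14 tRNAs. The light-strand transcript carried mt-Nd6 and 8 tRNAs. The gene mt-Atp8 (chromosome M, 7766 to 7969, an exonic single-exon gene of 204 bases) shared its last 43 bases with the start of mt-Atp6 (7927 to 8607). Both encode ATP synthase subunits from one bicistronic mRNA in a shifted frame. The sequence of mt-Atp8 is shown because it was the mRNA that varied most between libraries, with the bases shared with mt-Atp6 in capitals.
mt-Atp8: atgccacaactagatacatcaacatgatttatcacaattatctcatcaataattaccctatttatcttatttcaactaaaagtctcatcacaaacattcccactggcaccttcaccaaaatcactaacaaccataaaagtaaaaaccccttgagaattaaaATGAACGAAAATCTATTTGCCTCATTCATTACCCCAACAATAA

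The genes mt-Nd4l and mt-Nd4 overlapped by 7 bases on 1 strand, and mt-Nd5 and mt-Nd6 by 14 bases on opposite strands. In 3 mRNAs (mt-Co3, mt-Nd4 and mt-Cytb) the gene model ended 1 base into a stop codon, which polyadenylation completes in the mature RNA.

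Among the 22 tRNAs, those on the light strand were counted far more often than those on the heavy strand. All 8 light-strand tRNAs had a median of at least 22 counts per library, whereas 10 of the 14 heavy-strand tRNAs had a median under 10. The 3 tRNAs with the most counts were mt-Tp for proline (light strand, 15356 to 15422), mt-Te for glutamate (light strand, 14071 to 14139) and mt-Tm for methionine (heavy strand, 3845 to 3913). Their median counts were 1984, 464 and 204.5. They are shown with 3 further tRNAs, because mt-Ti, mt-Tc, mt-Tn and mt-Te varied widely between libraries while mt-Tp and mt-Tm hardly did. Capitals mark the anticodon.
mt-Tp: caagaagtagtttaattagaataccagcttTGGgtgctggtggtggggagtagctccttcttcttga
mt-Tm: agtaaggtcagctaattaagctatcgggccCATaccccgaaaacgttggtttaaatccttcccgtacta
mt-Te: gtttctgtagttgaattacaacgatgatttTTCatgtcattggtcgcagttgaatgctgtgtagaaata
mt-Tn: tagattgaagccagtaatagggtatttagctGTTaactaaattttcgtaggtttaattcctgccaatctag
mt-Tc: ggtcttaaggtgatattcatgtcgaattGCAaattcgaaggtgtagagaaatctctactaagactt
mt-Ti: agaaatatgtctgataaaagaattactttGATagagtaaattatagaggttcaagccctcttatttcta

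With 44.8% and 44.9% GC, mt-Tp and mt-Tm are the most GC-rich of these, while mt-Ti for isoleucine (27.5%), mt-Tn for asparagine (33.8%) and mt-Tc for cysteine (36.4%) are richer in A and T. The genes mt-Tn, mt-Tc and mt-Ti were chosen for mention after their values were seen. In 8 tRNAs counts were too few for a test. Of these, mt-Tk had a count in 1 library only, mt-Tf and mt-Tt in 6 each, and mt-Tv and mt-Td in 9 each. A count of 0 in a library allowed up to 3 counts there. Mature tRNAs are short and heavily modified, and the labels name no step that selects them, so the counts are not a measure of mature tRNA abundance.

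Total counts per library ran from 21290169 to 33810573. The mitochondrial genes took 10.0% ± 1.52 (SD, n = 36) of them, with a lowest library of 7.40% and a highest of 12.6%. Almost all of this was mRNA: the 13 mRNAs held 98.7% ± 0.228 (SD, n = 36) of the mitochondrial counts, the 2 rRNAs 1.15% ± 0.222, the light-strand tRNAs 0.105% ± 0.0150 and the heavy-strand tRNAs 0.0141% ± 0.00221.

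Levels are compared between genes as CPM, scaled between libraries by edgeR, per kilobase of gene. On that scale mt-Co1, which encodes the catalytic subunit of cytochrome c oxidase, stood highest with 21840 ± 2635 (SD, n = 36), above the next gene in 36 of 36 libraries. It was followed by mt-Atp6 with 12300 ± 3542, and by the remaining mitochondrial subunits of the oxidase, mt-Co3 with 11670 ± 2585 and mt-Co2 with 11260 ± 1689. The order among these 3 was not stable, since mt-Atp6 exceeded mt-Co3 in 22 of 36 libraries and mt-Co3 exceeded mt-Co2 in 22. Next came mt-Cytb, the cytochrome b of complex III, with 9981 ± 1580, and mt-Atp8 with 7797 ± 3634. The subunits of complex I, the NADH dehydrogenase, had lower means, although mt-Atp8 exceeded mt-Nd4 in 22 of 36 libraries only. Among them mt-Nd4 (5945 ± 1620), mt-Nd2 (5453 ± 1260), mt-Nd1 (5129 ± 1160) and mt-Nd4l (5010 ± 1071) lay within 1 SD of each other. Then came mt-Nd6 with 2869 ± 667, mt-Nd5 with 2651 ± 554 and mt-Nd3 with 1785 ± 683. Of these 15 mRNAs and rRNAs the rRNAs were lowest, mt-Rnr1 of the small ribosomal subunit with 476 ± 62.6 and mt-Rnr2 of the large one with 430 ± 94.7. In the order from mt-Nd3 to mt-Rnr1 all 36 libraries agreed, but mt-Rnr1 exceeded mt-Rnr2 in 21 only. How transcripts were selected for the libraries is not given in the sources used here, so the low rRNA level is a property of these libraries.

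**Figure D1:**
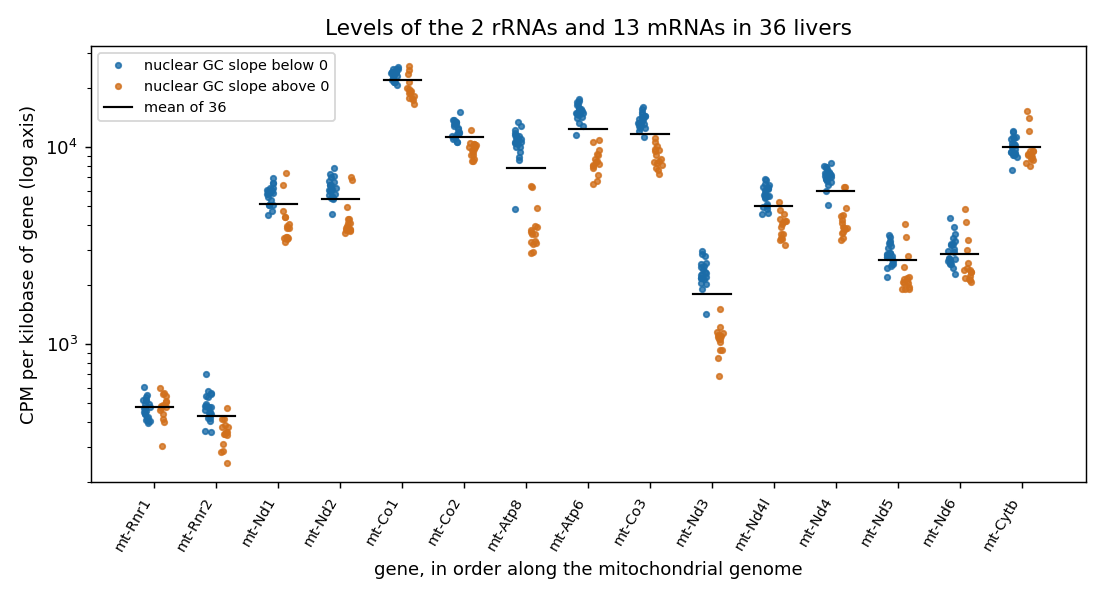
CPM per kilobase of gene on a log axis for the 2 rRNAs and 13 mRNAs in their order along the genome. Each point is 1 of 36 libraries, coloured by the sign of its nuclear GC slope, and the black line is the mean. The mean of mt-Co1 is highest at 21840 and that of mt-Rnr2 lowest at 430, and the colours separate most for mt-Atp8, mt-Atp6 and mt-Nd3.

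Libraries of each diet differed among themselves, and most mitochondrial genes differed with them. For each library a slope was fitted of log2 CPM, relative to the mean of all libraries, on the GC content of 14018 nuclear genes, which left the mitochondrial genes out. A slope below 0 means that AT-rich nuclear transcripts had relatively many counts. It was below 0 in 21 libraries (8 control, 5 red and 8 tangerine) and above 0 in 15 (4, 7 and 4), from -0.154 to 0.330 log2 units per 10 percentage points of GC. The mitochondrial mRNAs were AT-rich, with 31.9 to 41.1% GC against a median of 49.3% for the nuclear genes. Extraction or sequencing batches that could match these 2 kinds of library are not given in the sources used here. The comparison between them is a description with no test, because they were defined from the same libraries.

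The mitochondrial share of counts was 11.0% ± 0.752 (SD, n = 21) in libraries with a slope below 0 and 8.62% ± 1.21 (SD, n = 15) in those above 0. Some other RNAs also differed between the kinds with the same direction in each diet, while others changed direction between diets. The summed median of 4 small stable RNAs was 2.34, 2.12 and 2.62 CPM below 0 and 4.50, 4.63 and 4.95 CPM above 0 in control, red and tangerine libraries. That of 5 erythroid markers was 292, 285 and 352 CPM below 0 and 498, 453 and 460 CPM above 0. That of 2 nuclear RNAs, Malat1 and Neat1, was 136.8, 148.3 and 154.2 CPM below 0 and 217.5, 189.2 and 116.9 CPM above 0. It was thus lower above 0 in tangerine libraries alone. Markers of B cells, Kupffer cells and stellate cells changed direction between diets too. Those of hepatocytes, T cells, endothelial cells and cholangiocytes were higher above 0 in each diet. For the hepatocyte markers the medians were 114300, 105700 and 106400 CPM below 0 and 116000, 112000 and 109200 CPM above 0. The part of all these RNAs in the mitochondrial values was not tested. Single genes differed much more than the sum. On the log2 scale mt-Atp8 was 1.41 higher in the libraries below 0, where it ranged from 990 to 2742 CPM against 588 to 1294 CPM above 0. The complex I subunit mt-Nd3 was 1.09 higher, with 496 to 1027 CPM against 238 to 522 CPM. The values of mt-Atp6 did not overlap at all, since the lowest library below 0 had 7824 CPM and the highest above 0 had 7340 CPM. At the other end, mt-Cytb differed by 6.74e-05, mt-Nd6 by 0.15 and mt-Co1 by 0.20. The value of mt-Cytb joined opposite signs, with -0.11 in control, -0.12 in red and 0.21 in tangerine libraries. Between the rRNAs, mt-Rnr1 was -0.06 apart and mt-Rnr2 0.41 apart. In each of the 3 diets taken alone, mt-Atp8 (1.30, 1.29 and 1.54 higher in control, red and tangerine libraries) and mt-Nd3 (1.14, 0.91 and 1.11) showed the same direction.

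The tRNAs showed the widest gaps. On the log2 scale mt-Ti was 3.14, mt-Tc 2.87, mt-Tn 2.72 and mt-Te 2.03 higher in libraries with a slope below 0. By contrast mt-Tp was 0.16 higher and mt-Tm -0.05 apart. For mt-Tc this meant 3.69 CPM or more in every library below 0 and 1.66 CPM or less in every library above 0. In all, 7 of the 29 members with enough counts to test did not overlap between the 2 kinds of library, namely mt-Ti, mt-Ta, mt-Tn, mt-Tc, mt-Ty, mt-Atp6 and mt-Co3, all higher below 0. The share of all 14068 tested genes that did so in that direction was 0.86%. Nuclear genes with 35 to 40% GC were 0.312 higher in the libraries below 0 (median of 815 genes), and those under 35% were 0.325 higher (37 genes). Across the 29 members, the difference was smaller at higher GC content (Spearman's rho -0.69), a description across genes of 1 molecule that are not independent. The light-strand tRNAs mt-Te and mt-Tp, of 69 and 67 bases and with 34.8% and 44.8% GC, differed by 2.03 and 0.16. With nearly equal GC of 36.4% and 36.6%, the light-strand tRNAs mt-Tc and mt-Tq differed by 2.87 and 0.49. The part of GC content in these differences was not tested.

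**Figure D2:**
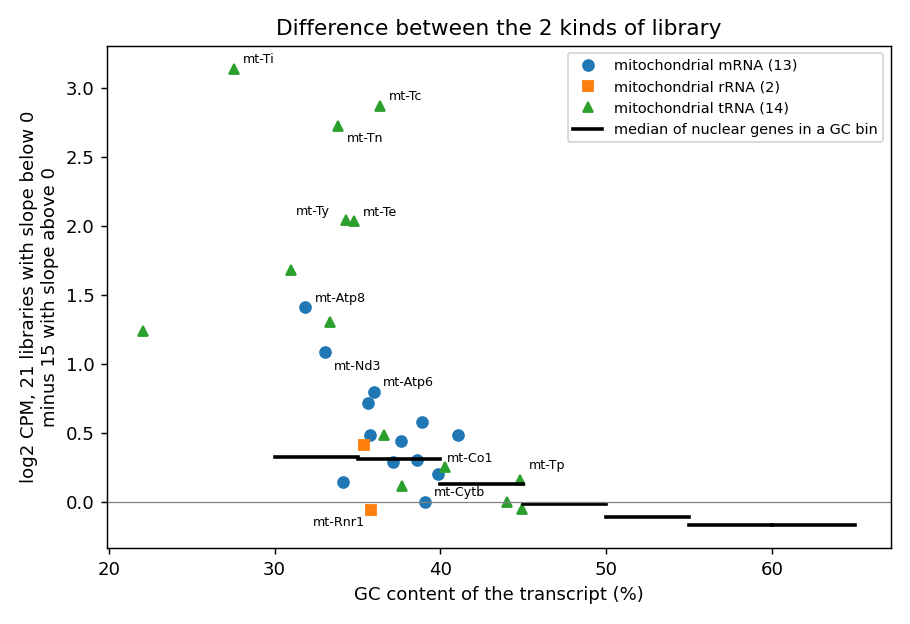
Difference in mean log2 CPM between the 21 libraries with a nuclear GC slope below 0 and the 15 above 0, for 29 mitochondrial genes, against the GC content of the transcript. Black bars are medians of nuclear genes in GC bins (outer bins drawn to the edges shown). The tRNA mt-Ti at 3.14 and the mRNA mt-Atp8 at 1.41 lie far above the nuclear bars, which reach 0.325. The point of mt-Cytb lies at 0, from differences below 0 in control and red libraries and above 0 in tangerine ones.

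The libraries of control mouse 245 and red mouse 177, both with a slope above 0, stood apart from the rest. They held the highest mt-Cytb of all (16081 and 17403 CPM) and the lowest mt-Nd3 of their diets (294 and 238 CPM). The mitochondrial share was 10.8% and 11.5% in these libraries, above that of the other 13 with a slope above 0.

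A part of the mitochondrial genome also exists as a nuclear copy on chromosome 1 (minus strand), where annotated pseudogenes match 7 of the mRNAs. They are Gm28439 for mt-Nd4, Gm10222 for mt-Nd4l, Gm28438 for mt-Nd3, Gm28437 for mt-Co3, Gm10925 for mt-Atp6, Gm28661 for mt-Co2 and Gm29216 for mt-Co1, from 24611535 to 24616197. Over 4140 aligned bases the pairs held 2 mismatches, both within the first few bases of an alignment. They are A1066T between mt-Co1 and Gm29216 and T3C between mt-Nd3 and Gm28438, with the mitochondrial base first and positions counted from 1 at the 5′ end of the mitochondrial gene. Both places are shown because over the other aligned bases a read has nothing to tell the copy from the mitochondrial gene. Capitals mark the differing base.
mt-Co1: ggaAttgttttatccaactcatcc
Gm29216: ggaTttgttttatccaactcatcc
mt-Nd3: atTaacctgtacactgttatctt
Gm28438: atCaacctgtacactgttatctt

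The copies together held 0.168% ± 0.0538 (SD, n = 36) of all counts, little beside the 10.0% of the mitochondrial genes. Counts of Gm29216 came to between 0.644% and 1.63% of those of mt-Co1, and the libraries fell into 2 classes. In 24 libraries, 8 per diet, the ratio was at most 0.978%, and in 12 libraries, 4 per diet, it was at least 1.32%. Of the other 6 pairs, those of mt-Co3, mt-Nd3 and mt-Nd4l did not overlap between the classes either. Their medians were 2.2%, 2.349% and 2.181% in the 24 libraries and 4.045%, 4.403% and 3.855% in the 12. The remaining pairs overlapped. Their medians in the 24 and the 12 libraries were 3.195% and 5.418% for mt-Atp6, 2.052% and 2.113% for mt-Nd4, and 6.55% and 7.151% for mt-Co2. The classes were balanced over diets but not over the nuclear GC slope. All 4 control libraries with the higher ratio (mice 122, 136, 183 and 188) had a slope below 0, whereas the 4 tangerine libraries of that class lay above 0, as did 3 of the 4 red ones. How reads matching several places were counted is not given in the sources used here, so the counts of these 7 mRNAs and of their copies are uncertain.

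**Figure D3:**
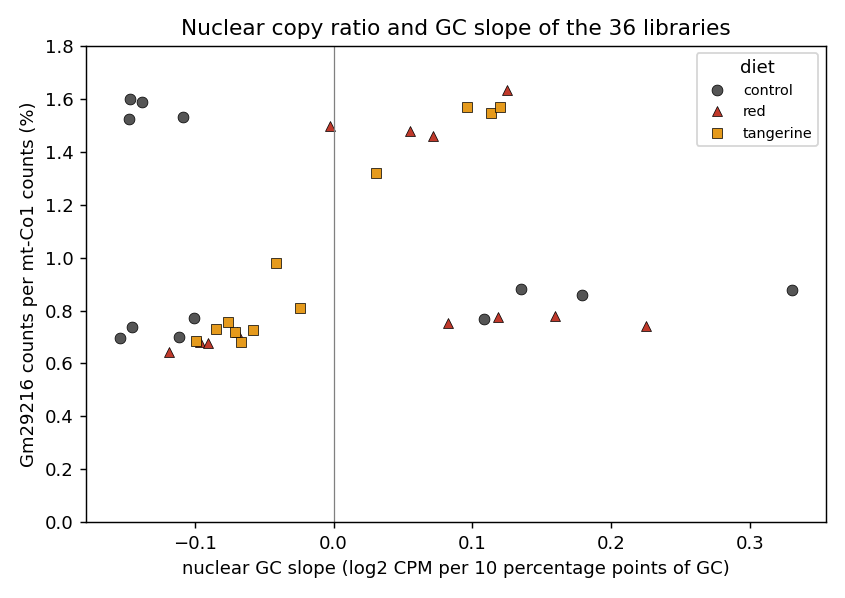
Counts of the nuclear copy Gm29216 as a percentage of mt-Co1 counts against the nuclear GC slope, 1 point per library with diet as symbol. The 24 libraries of the lower class lie at or under 0.978% and the 12 of the higher class at or over 1.32%, where control libraries lie left of 0 and tangerine libraries right of it.

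The question of the design was whether red or tangerine tomato powder altered liver transcripts. For the mitochondrial share of counts the diets overlapped widely over all 36 libraries. The lowest, median and highest control libraries had 7.54%, 10.8% and 11.8%, the red ones 7.61%, 9.22% and 12.1%, and the tangerine ones 7.40%, 10.4% and 12.6%. In the red group 9 of 12 libraries lay under the control median and 0 lay under the lowest control. Means were 10.5% ± 1.26 (SD, n = 12) in controls, 9.46% ± 1.53 under red and 10.1% ± 1.69 under tangerine. The difference of red from control was -1.06 percentage points, or 0.757 of the SD within diets, and that of tangerine was -0.453 points. Within libraries with a slope below 0 the red difference was -0.561 points (5 against 8 libraries) and within those above 0 it was -0.594 points (7 against 4). For tangerine these were -0.0478 and -1.26 points. Above 0 the 4 controls were all of the lower copy-ratio class and the 4 tangerine libraries all of the higher one, so class and diet cannot be told apart in the latter value. Within the higher class (4 libraries per diet) the controls, at 10.9 to 11.8%, lay above all red and tangerine libraries. Red libraries had 8.446 to 9.724% and tangerine libraries 7.403 to 8.465%, so these 2 diets overlapped slightly. In that class every control library had a slope below 0 and every tangerine library one above 0, so slope and diet cannot be told apart. The differences from control there were -2.30 points for red and -3.21 points for tangerine. Within the lower class (8 each) they were -0.438 and 0.926 points. Over all libraries these differences were smaller than 1 SD. With the copy-ratio class and the GC slope as terms, the red difference was -0.617 points, and as a difference of group medians it was -1.61 points.

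**Figure D4:**
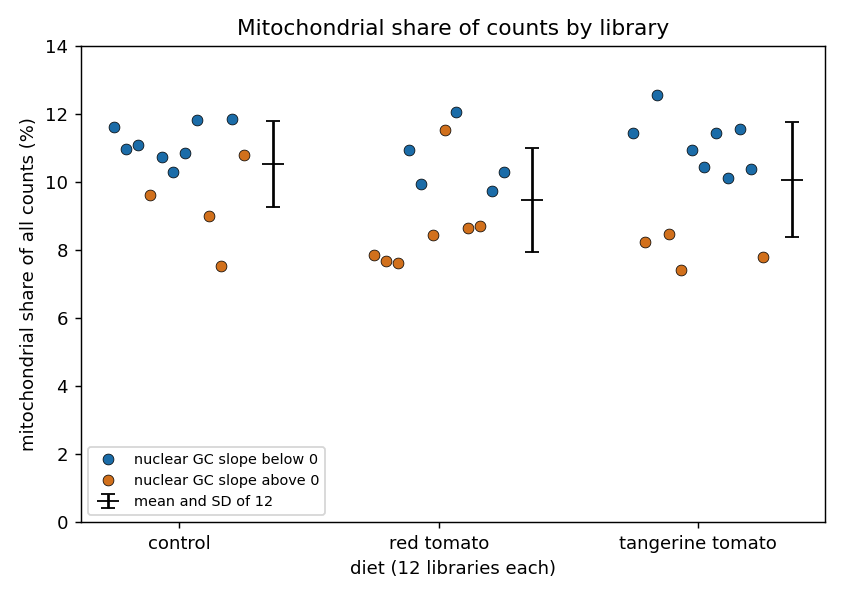
Mitochondrial share of all counts (%) for each of the 36 libraries by diet, coloured by the sign of the nuclear GC slope, with the mean and SD of 12 libraries beside each group. All 3 diets span about the same range, from 7.40 to 12.6%, and libraries with a slope below 0 all lie at or above 9.72%.

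In edgeR's quasi-likelihood test, 0 of the 29 tested members passed an adjusted p of 0.05 for red against control, where 0.149% of all 14068 tested genes did. The smallest adjusted p of a member was 0.227 (Benjamini-Hochberg over all tested genes), that of mt-Tw. At an unadjusted p under 0.05 there were 6 members beside 13.3% of all tested genes, 5 of them lower (6.63% of all genes) and 1 higher (6.67%). Without the library of red mouse 186 there were 13, of which 12 were lower, beside 1886 of 14099 genes. Without control mouse 245 and red mouse 177 there were 10, of which 9 were lower, beside 2008 of 14103. DESeq2 gave 10, of which 9 were lower, beside 1877 of 14068. Across the fits the number ran from 3 with a clock score as covariate (1373 of 14068 genes) to 21 with limma-voom and sample weights (3713 of 14068). Between these it was 4 with the GC slope and 12 with the copy-ratio class as covariate. In all, 26 of 29 members, among them all 13 mRNAs, had a fold change below 0 in red livers, beside 51.5% of all genes. The members' median log2 fold change was -0.25 and that of all genes -0.0047. The members lie on 1 molecule and are not independent of each other. The count of calls differed between fits. At an adjusted p of 0.05 DESeq2 passed 0 of 29 members, beside 164 of all 14068 tested genes. At that threshold limma-voom combined with sample weights passed 12 of 29 members, all lower in red livers, beside 10.7% of all genes. Its smallest adjusted p was 0.0172, that of mt-Nd1, and the 12 included 9 mRNAs and 3 tRNAs.

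Among the larger differences was that of the complex I mRNA mt-Nd3. Its lowest, median and highest values were 294, 778 and 998 CPM in controls, 238, 409 and 757 CPM under red and 357, 764 and 1027 CPM under tangerine. All 12 red livers lay under the control median, although the ranges overlapped. Red livers differed from controls by a log2 fold change of -0.48 ± 0.22 (SE), with an adjusted p of 0.341 in edgeR.

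For mt-Co2, a subunit of cytochrome c oxidase, control livers had 5799, 8386 and 10270 CPM (lowest, median, highest), red livers 5952, 7079 and 8060 CPM and tangerine livers 5784, 7579 and 9377 CPM. It had the smallest p of the mRNAs. Again all 12 red livers lay under the control median, with a log2 fold change of -0.21 ± 0.084 (SE) and an adjusted p of 0.252 in edgeR. Its partners mt-Co3 and mt-Co1 had log2 fold changes of -0.25 ± 0.13 and -0.14 ± 0.074, with 12 and 9 red livers under the control median. Their adjusted p were 0.384 and 0.424 in edgeR.

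The ATP synthase mRNA mt-Atp8 had the largest difference of the mRNAs and also the largest spread. Control livers had 588, 2094 and 2742 CPM, red livers 597, 883 and 2403 CPM and tangerine livers 663, 2072 and 2588 CPM. Low and high livers occurred on every diet, and most of the low ones had a nuclear GC slope above 0, of which red had 7 and the other diets 4 each. The log2 fold change in red was -0.52 ± 0.29 (SE) with an adjusted p of 0.447 in edgeR. For mt-Atp6 it was -0.33 ± 0.17 with 0.381.

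The other complex I mRNAs had log2 fold changes in red of -0.29 ± 0.16 for mt-Nd4, -0.28 ± 0.13 for mt-Nd2, -0.26 ± 0.13 for mt-Nd1, -0.17 ± 0.12 for mt-Nd5 and -0.12 ± 0.12 for mt-Nd4l. None of these passed edgeR's test, with adjusted p from 0.338 to 0.717 in edgeR. For mt-Nd6, the single mRNA of the light strand, 11 of 12 red livers and 11 of 12 tangerine livers lay below the control median. Its values were 1069, 1695 and 2156 CPM in controls, 1095, 1266 and 2509 CPM under red and 1126, 1347 and 2249 CPM under tangerine. The log2 fold changes were -0.26 ± 0.12 under red and -0.19 ± 0.12 under tangerine, with adjusted p of 0.356 and 0.959 in edgeR. The cytochrome b mRNA mt-Cytb differed by -0.11 ± 0.089 in red.

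The rRNAs had the smallest differences. The log2 fold change of mt-Rnr1 was 0.02 ± 0.079, from 289, 458 and 520 CPM in controls and 381, 443 and 567 CPM under red. That of mt-Rnr2 was -0.08 ± 0.12, a sign that turned with the clock score, with surrogate variables or with the GC slope as covariate. Of the tRNAs, mt-Te had -0.79 ± 0.40, mt-Tp -0.16 ± 0.092 and mt-Tm 0.10 ± 0.085. The tryptophan tRNA mt-Tw, named after its values were seen, was the member with the smallest p. It had 0.160, 0.534 and 0.748 CPM in controls, 0.418, 0.714 and 1.03 CPM under red and 0.438, 0.665 and 1.36 CPM under tangerine, from a median of 18.5 counts per library. Its log2 fold changes were 0.51 ± 0.19 under red and 0.53 ± 0.19 under tangerine, with adjusted p of 0.227 and 0.672 in edgeR.

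The median red difference of the 13 mRNAs was smaller within each kind of library than over all of them. Among libraries with a slope below 0, 12 of 13 mRNAs were lower in red, with a median log2 difference of -0.12. Among those above 0, 12 of 13 were also lower, with a median of -0.10, whereas the median was -0.22 over all libraries. Some mRNAs went the other way. For mt-Cytb the difference was -0.07 over all libraries, -0.10 below 0 and -0.10 above 0. Above 0 it was also larger than over all libraries for mt-Nd6 (-0.25 against -0.22), mt-Nd5 (-0.18 against -0.15) and mt-Co1 (-0.12 against -0.10). With the copy-ratio class and the GC slope as terms in the edgeR fit, the differences of mt-Atp8 (-0.31 ± 0.15), mt-Nd3 (-0.28 ± 0.12), mt-Atp6 (-0.16 ± 0.10) and mt-Co2 (-0.15 ± 0.070) were smaller than with diet alone. Those of mt-Nd6 (-0.27 ± 0.12), mt-Cytb (-0.14 ± 0.089) and mt-Tw (0.61 ± 0.19) were not. In that fit 0 of 29 members were called beside 1.32% of all genes, with the smallest adjusted p at 0.0929, again that of mt-Tw. The copy-ratio classes gave different medians. Within the 12 libraries of the higher class the median mRNA difference of red from control was -0.51, within the 24 of the lower class -0.08. For tangerine these were -0.63 and 0.21, with opposite signs in the 2 classes. In the higher class every control library had a slope below 0 and every tangerine library one above 0, so slope and diet cannot be told apart there. In the lower class they were unbalanced, with a slope below 0 in all 8 tangerine libraries and in 4 of 8 controls.

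For tangerine against control, 0 of 29 members were called beside 0.0142% of all genes, and 1 had an unadjusted p under 0.05 beside 5.47%. The median log2 fold change of the members was -0.0029, with 15 of 29 below 0 beside 55.4% of all genes. Without the library of tangerine mouse 216 the median was -0.075, with 19 of 29 below 0, and without control mouse 245 and red mouse 177 it was -0.048, with 17 below 0. The lowest of the mRNAs were mt-Nd6 with -0.19 and mt-Nd1 with -0.15 ± 0.13. For tangerine against red, 0 of 29 were called beside 1.71% of all genes, and 2 were higher at an unadjusted p under 0.05 beside 6.6%. That number was 5 without red mouse 186 (968 of 14099 genes) and 0 without tangerine mouse 216 (764 of 14113). It was 0 without control mouse 245 and red mouse 177 (924 of 14103). Only 1 of the 29 members had a fold change below 0, beside 51.5% of all genes, and the members' median was 0.18. The direction differed between kinds of library. Within those with a slope above 0, 12 of 13 mRNAs were lower in tangerine than in red (median log2 difference -0.11). Within those below 0, 1 of 13 was lower (median 0.11). In the higher copy-ratio class 12 of 13 were lower (median -0.16), and in the lower class 0 of 13 (median 0.28). The mRNA with the smallest p was mt-Nd3 at 0.48 ± 0.22 (adjusted p = 0.286 in edgeR), followed by mt-Co3 at 0.25 ± 0.13 and mt-Nd4 at 0.30 ± 0.16. This comparison shares its red livers with that of red against control. For both tomato diets against control, 0 were called beside 0.00711% of all genes, and 2 had an unadjusted p under 0.05 beside 6.77%. The latter number was 4 without red mouse 186 (1045 of 14099 genes) and 4 without control mouse 245 and red mouse 177 (1138 of 14103). Of the 29, 25 had a fold change below 0 beside 54.5% of all genes.

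**Figure D5:**
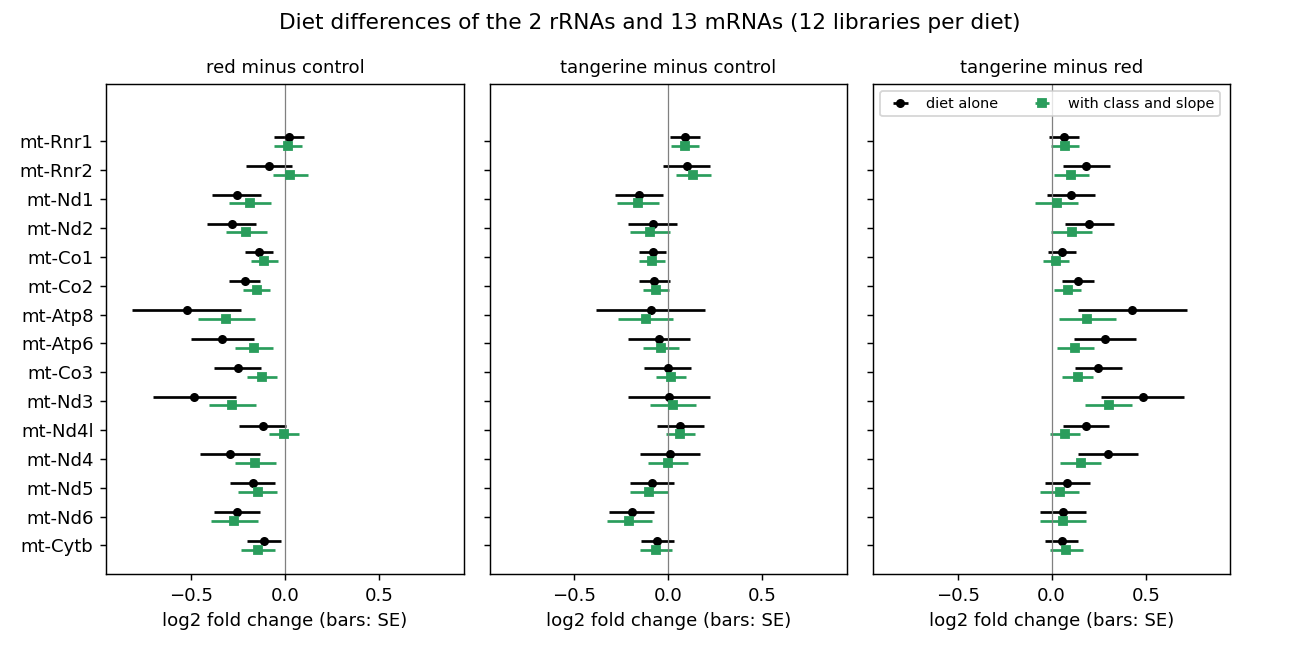
Log2 fold changes with SE of the 2 rRNAs and 13 mRNAs for red minus control, tangerine minus control and tangerine minus red, from a fit with diet alone (circles) and one with copy-ratio class and nuclear GC slope added (squares). For red, all 13 mRNAs lie below 0 in both fits, and mt-Atp8 moves from -0.52 to -0.31.

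The balance between kinds of transcript was given by 2 ratios without a test. The log2 ratio of rRNA to mRNA counts was -6.57 ± 0.232 (SD, n = 12) in controls, -6.39 ± 0.267 under red and -6.39 ± 0.318 under tangerine. The differences from control, 0.18 for each tomato diet, were smaller than the spread within diets. In libraries above 0 the tangerine difference was 0.49 (4 against 4 libraries), where diet and copy-ratio class cannot be told apart, and in those below 0 it was 0.02. The log2 ratio of mt-Nd6 to the 12 heavy-strand mRNAs was -5.99 ± 0.229 in controls, -6.05 ± 0.245 under red and -6.11 ± 0.180 under tangerine, with overlapping ranges.

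Across libraries some members varied together. The correlations were made on log2 CPM after subtraction of each diet's mean, with permutation p adjusted over 12 tests in all libraries (6 pairs, r and rho) and over 24 tests within the 2 kinds of library. The neighbours mt-Atp6 and mt-Co3 had Pearson's r of 0.911 over 36 libraries (adjusted permutation p = 4e-05, from the smallest p that 100000 permutations give) and Spearman's rho of 0.919 (adjusted permutation p = 4e-05). Without the 2 libraries farthest from the median of mt-Atp6 r was 0.883. Within libraries with a slope below 0, r was 0.657 (adjusted permutation p = 0.0059), and above 0 it was 0.352 (adjusted permutation p = 0.283), so the relation passed within 1 of the 2 kinds of library. The rRNAs mt-Rnr1 and mt-Rnr2 had a pooled r of 0.464 (adjusted permutation p = 0.0111) and rho of 0.303 (adjusted permutation p = 0.0879), and 0.764 and 0.648 within the kinds. Without the 2 farthest libraries these were 0.290, 0.616 and 0.316, so the pooled relation and that above 0 rested on those libraries. For mt-Nd6 and mt-Cytb, pooled r was 0.770 (adjusted permutation p = 4e-05) and rho 0.652 (adjusted permutation p = 0.00024), with 0.465 below 0 and 0.936 above 0, where it was 0.806 without the 2 farthest libraries. For mt-Rnr2 and mt-Nd1, r was 0.345 pooled (adjusted permutation p = 0.0536, rho 0.374 with 0.0389) and -0.158 and -0.303 within the kinds, so no relation held.

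The most abundant mRNA, mt-Co1, was set against Dbp, an output gene of the circadian clock, and Malat1, an RNA kept in the nucleus. With Dbp r was -0.0141 pooled (adjusted permutation p = 0.937, rho 0.0260 with 0.937), -0.531 below 0 (adjusted permutation p = 0.0332, rho -0.478 with 0.0605) and 0.232 above 0 (adjusted permutation p = 0.471). With Malat1 it was -0.417 pooled (adjusted permutation p = 0.0226, rho -0.407 with 0.0245), -0.472 below 0 and -0.446 above 0, neither of which passed alone (adjusted permutation p = 0.0605 and 0.155). Within diets the Malat1 relation was -0.548 in controls, -0.724 under red and -0.0687 under tangerine.

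Clock genes differed between the red and the tangerine livers and are given beside the mitochondrial values. The median of Dbp was 72.5 CPM in controls, 15 CPM under red and 68.7 CPM under tangerine, with ranges of 1.84 to 105, 3.64 to 57.6 and 29.1 to 148 CPM. Arntl, a core clock activator, had medians of 4.67, 17.7 and 5.78 CPM. Tangerine livers were 1.84 ± 0.46 higher in Dbp than red livers and differed by -1.46 ± 0.40 in Arntl on the log2 scale, with adjusted p of 0.0289 and 0.0464 in edgeR. With a clock score as covariate the members' median for red against control was -0.22 and 0 were called. For tangerine against red the members' median was 0.11 in place of 0.18, with 7 of 29 below 0 in place of 1. Among all tested genes 0 were called for tangerine against red with that covariate, in place of 241. The part of the time of day in the mitochondrial differences was not tested.

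Of the listed nuclear genes that serve the mitochondrial genome, 0 were called in edgeR for any of the 4 contrasts. The share called among all tested genes was 0.149% for red and 0.0142% for tangerine against control. It was 1.71% for tangerine against red and 0.00711% for both tomato diets against control. The 6 lists held 25 of 25 tested genes for transcription and replication, 31 of 35 for RNA processing and stability, 10 of 10 regulators, 29 of 30 for translation factors and tRNA synthetases, 77 of 83 ribosomal proteins and 70 of 72 nuclear respiratory chain subunits. Of the respiratory chain subunits, 68 of 70 had a fold change below 0 for red against control, beside 51.5% of all genes, with a median of -0.0788, and 14 had an unadjusted p under 0.05, all lower, beside 6.63% of all genes. On mean log2 CPM their median was -0.0838 within libraries with a slope below 0 and -0.155 within those above 0. For tangerine against control it was -0.0318 in the edgeR fit. The mitochondrial ribosomal proteins had 60 of 77 below 0 in red, with a median of -0.0497.

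None of the 5 genes named here passed the test in edgeR. Tfam, which packs the mitochondrial genome and starts its transcription, had medians of 43.4, 42.2 and 42.6 CPM in controls, red and tangerine and a log2 fold change of -0.02 ± 0.058 for red. The mitochondrial RNA polymerase gene Polrmt had 18.6, 20.8 and 18.2 CPM and 0.13 ± 0.064 (adjusted p = 0.365 in edgeR). The mRNA stabilizers Lrpprc and Slirp differed by -0.11 ± 0.055 and -0.07 ± 0.093. The coactivator gene Ppargc1a, a driver of mitochondrial biogenesis, had 15.7, 10.9 and 15.1 CPM and differed by -0.46 ± 0.17 in red, with an adjusted p of 0.218 in edgeR. Polrmt was higher and Ppargc1a lower in libraries with a slope above 0, with medians of 21.6 against 18.0 CPM and 11.1 against 16.5 CPM.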

How the data were processed

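The authors deposited 1 table that holds unnormalized gene counts of 36 liver libraries. Per the labels' protocols, RNA came from column kits and libraries from a directional RNA-seq kit. Per the submitters' processing notes, FastQC, Trimmomatic, edgeR and the build GRCm38.p6 were used, with no role given. The aligner, counter, strand setting and treatment of reads with several matches are not given in the sources used here. Symbols and positions came from GENCODE M21 (GRCm38) by Ensembl identifier, and matched 53620 of 53715 identifiers. With 12 libraries per diet, a number named each mouse, and p-values measure the spread between these samples.

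Counts were filtered with filterByExpr (minimum count 10, total 15, share 0.7), scaled by TMM and tested in edgeR 4.0.16 with the quasi-likelihood test on all 36 libraries without covariates. P-values were adjusted by Benjamini-Hochberg over 14068 genes in each contrast, with a threshold of 0.05. Standard errors are the absolute log2 fold change over the square root of F. The fit was tested on simulated counts. Log2 CPM used a pseudocount of 0.1 for slopes and differences between kinds of library, and a prior count of 2 for correlations. Nuclear copies were found with BLAST 2.17.0 at 90% identity over 50 bases. Named were all mRNAs and rRNAs, the 3 tRNAs with the most counts, Polrmt, Tfam, Lrpprc, Slirp, Ppargc1a, Dbp, Arntl and Malat1, and up to 2 called genes per list. Alternatives were DESeq2 1.42.0 and its size factors, nuclear-only scaling, other filters, limma 3.58.1 voom with sample weights, sva 3.50.0, covariates and libraries left out. The members, lists and tests were chosen with earlier results of these data known, and the GC slope, copy-ratio class and the pair of libraries left out after seeing the data.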

Additional observations from a re-analysis of the deposited data

Results flagged for a closer look

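In 2 tomato-fed livers, markers of other tissues were far above the highest control library. The library of red mouse 186 had 7.38 CPM of the 5 adipocyte markers against at most 0.235 CPM in controls, 29.6 CPM of the 5 skeletal muscle markers against 1.03 CPM, and 168 CPM of the 5 T cell markers against 3.48 CPM. The library of tangerine mouse 216 had 11.2 CPM of the 10 pancreas acinar markers against 0.204 CPM. Without mouse 186, 0 mitochondrial genes were called in edgeR for red against control. Those with an unadjusted p under 0.05 numbered 13 (beside 1886 of 14099 tested genes) in place of 6 (beside 1872 of 14068). Without mouse 216, 0 were called for tangerine against control, and the median log2 fold change was -0.075 in place of -0.0029. The part of these tissues in the mitochondrial values was not tested.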

How the results depend on the processing

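The count of called mitochondrial genes was 0 in all 4 contrasts and stayed 0 in 65 of 67 alternative results. The exceptions were both for red against control. With limma-voom and sample weights together 12 members passed (smallest adjusted p 0.0172, beside 10.7% of all genes). With surrogate variables in the edgeR fit 1 passed (mt-Tw, adjusted p 0.047), beside 404 of all 14068 tested genes. Over all alternatives the smallest adjusted p of a member ranged from 0.0172 to 0.333 for red against control, 0.136 to 0.965 for tangerine against control, 0.0707 to 0.426 for tangerine against red and 0.0679 to 0.660 for both tomato diets. The share of counts in red minus control lay between -1.61 and -0.617 percentage points and in tangerine minus control between -0.761 and -0.372. With group medians, with libraries left out and with the copy-ratio class and GC slope as terms, both log2 ratios moved by less than 1 SD. The fold change of mt-Rnr2 for red against control turned to 0.078 with the clock score, 0.023 with surrogate variables, 0.028 with the GC slope and 0.029 with it beside the copy-ratio class, and that for tangerine against red turned to -0.032 with the clock score; the cause was not tested. Correlations within libraries with a slope below and above 0 changed the call or sign of the pooled r for mt-Rnr2 and mt-Nd1 (-0.158 and -0.303), mt-Atp6 and mt-Co3 (0.352 above 0), mt-Nd6 and mt-Cytb (0.465 below 0), mt-Co1 and Dbp (-0.531 below 0, 0.232 above 0) and mt-Co1 and Malat1 (-0.472 and -0.446), each with fewer libraries than the pool. No paired analysis was possible because no mouse number occurs in more than 1 diet. Depth limits the tRNAs most: 8 of 22 could not be tested.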
